A study of Mus musculus with 8 samples.

Results

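Superoxide dismutases and the peroxidases that follow them were read on expression arrays of mouse embryonic fibroblasts that lack Daxx and received either an empty vector or Daxx. The 9 genes were a list of symbols: Sod1, Sod2, Sod3, Cat, Gpx1, Gpx3, Gpx7, Gpx8 and Prdx1. All 9 were found among the 19938 genes measured by a probe set with a single symbol. Among the 9, only Prdx1 had several such probe sets, and the one chosen for it may read a near-identical copy. A gene with several was represented by the brightest on average. That average is a description and supports nothing here. The list was drawn up with results of these arrays in view.

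Superoxide dismutases turn superoxide into hydrogen peroxide, and catalase, glutathione peroxidases and peroxiredoxins break hydrogen peroxide down. The enzymes work in several places: the cytosol, the mitochondrial matrix, the peroxisome, the endoplasmic reticulum or the space outside the cell. In connective tissue the extracellular dismutase is bound to heparan sulfate of the matrix and the cell surface.

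Every sample was a Daxx knockout culture of the FVB/N background, grown in serum-containing medium. The 4 vector arrays came from knockout cells complemented with a vector, and the other 4 from knockout cells complemented with Daxx, named DaxxA (2 arrays) and DaxxB (2 arrays). The meaning of A and B, whether a group is 1 clone, and whether its arrays came from separate cultures are not stated in the labels. All p-values here thus reflect the spread among these arrays alone, which may be technical. Values are log2 signals, and a difference is Daxx minus vector unless another is named.

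Vector replicate 2 stood apart from the other arrays before any comparison. Its signals had an interquartile range of 2.79, against 3.31 to 3.39 in the other 7, so members' results that turn on it are given with and without it, and gene lists with their counts both ways. The Daxx probe set read 6.85 to 7.34 with vector and 7.23 to 7.46 with Daxx, a difference of 0.20 that did not pass (limma adjusted p = 0.46), so the labels alone give the direction of each comparison. Whether these probes fall in the deleted stretch is not known from the labels, so the probe set may check nothing. All 12 fibroblast markers listed, among them Col1a1, Vim and Pdgfra, had means above 6.07, the 95th percentile of 1027 olfactory receptor genes, taken as a mark of near-background signal. So had 12974 of the 19938 genes, and 34 of the 57 markers measured over all cell types listed. Passing this mark therefore does not identify the cells.

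Of the 9 genes, 1 fell and 0 rose in the Daxx arrays. Sod3, the secreted copper and zinc dismutase, fell 2.15-fold. Sod2, the mitochondrial manganese dismutase, and Gpx8, a peroxidase anchored in the membrane of the endoplasmic reticulum, differed by little, did not pass on the 8 arrays, and passed without vector replicate 2. The count of 1 in 9 stood against 4.52% of all genes called, 2.73% lower and 1.8% higher. At an unadjusted p below 0.05 there were 3 of the 9 (15.4% of all genes). The median difference of the 9 genes was 0.02, and that of all genes was -0.03. Without vector replicate 2, 2 of the 9 fell and 1 rose, where 12.8% of all genes were called, 7.57% lower and 5.26% higher. With each of the other 7 arrays left out in turn, 1 of the 9 was called, and it was Sod3 each time. In those fits 2.24% to 2.8% of all genes were called.

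**Figure D1:**
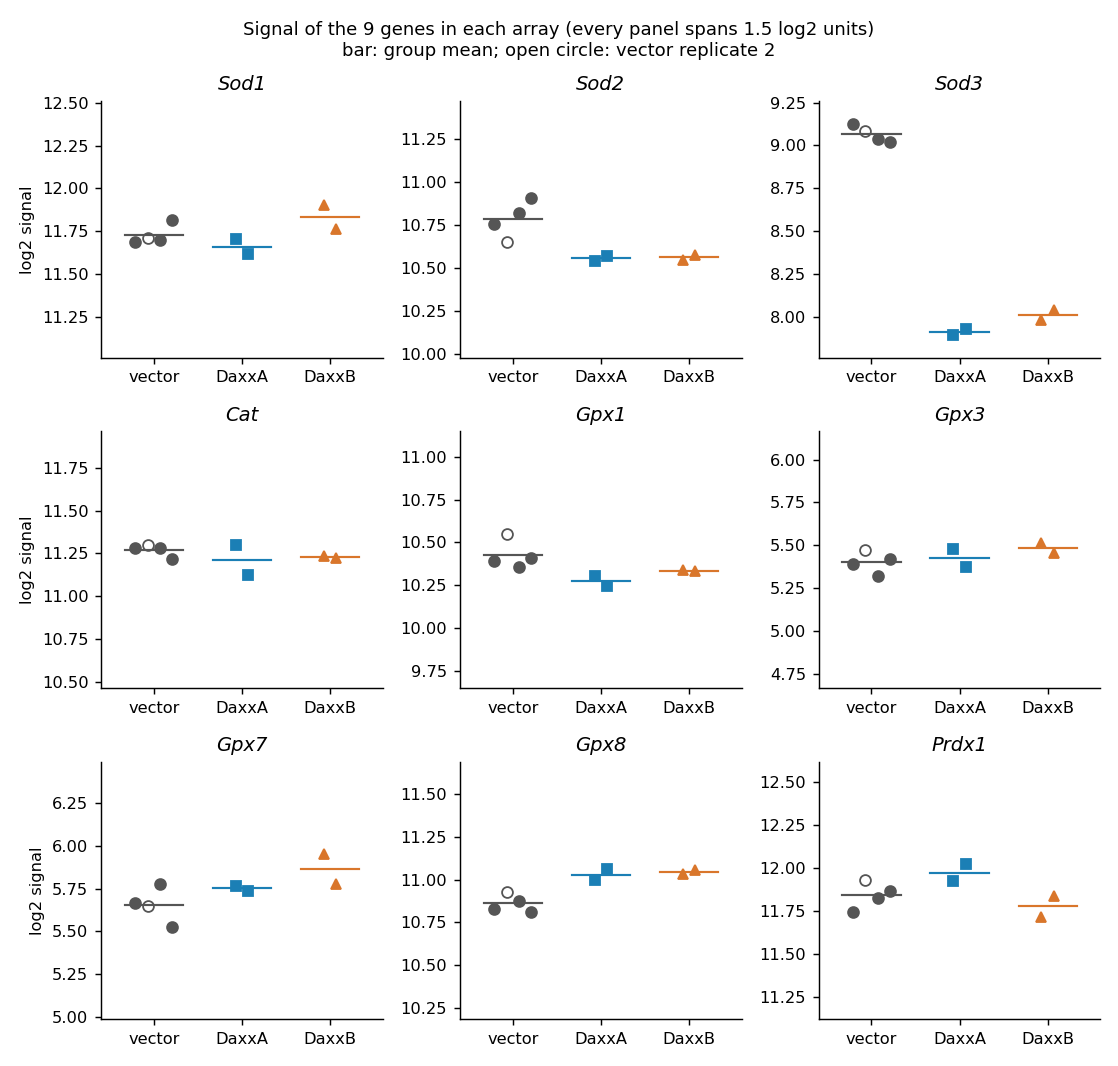
Log2 signal of each of the 9 genes (vertical axis, 1.5 log2 units in every panel) in the vector, DaxxA and DaxxB arrays (horizontal axis); points are arrays, bars are group means and the open circle is vector replicate 2. Sod3 is at 9.02 to 9.13 in the vector arrays and at 7.90 to 8.04 in the Daxx arrays, while the other panels show ranges of 0.17 to 0.43 over all 8 arrays.

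Sod3 is the dismutase that works outside the cell. Its signal was 9.13, 9.09, 9.03 and 9.02 in vector replicates 1 to 4, 7.90 and 7.93 in the DaxxA arrays, and 7.98 and 8.04 in the DaxxB arrays. Every Daxx array was thus lower than every vector array, and the gap between the nearest values was 0.98. The means were 9.07 ± 0.0488 (SD, n = 4) for vector and 7.96 ± 0.0623 (SD, n = 4) for Daxx.

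Sod3 fell by 1.11 on the log2 scale (SE 0.0543, 95% interval -1.23 to -0.98, limma adjusted p = 2.02e-05). The exact permutation p, two-sided, was 0.0286, the smallest that 4 against 4 arrays allow. It was the gene with the 34th lowest difference of 19938, and one of 48 that passed and fell at least 2-fold (0.241% of all genes). Vector replicate 2 lay inside the range of the other vector arrays, and without it Sod3 fell by 1.10 (limma adjusted p = 2.81e-07).

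The Sod3 decrease was present in both Daxx groups. DaxxA minus vector was -1.15 (SE 0.0605, limma adjusted p = 0.000422) and DaxxB minus vector was -1.06 (SE 0.0605, limma adjusted p = 0.000378). These comparisons share the vector arrays. Of all genes, 1.97% were called in the first (1.45% lower) and 2.69% in the second (1.92% lower), and in each Sod3 was the 1 member called. The DaxxA arrays were both below the DaxxB arrays, but the difference of -0.10 between the groups did not pass (95% interval -0.26 to 0.07, limma adjusted p = 1.0).

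Markers of fibroblasts moved beside Sod3. Of all genes 4.52% were called on the 8 arrays and 12.8% without vector replicate 2. With genes below the olfactory percentile left out, 10.3% of the rest were called on the 8 arrays. Of the 12 fibroblast markers, 5 fell, 1 rose and 6 did not pass, and without vector replicate 2, 6 fell and 1 rose. The log2 of their summed signal was 14.84 to 14.87 with vector and 14.66 to 14.70 with Daxx. Those that fell were Pdgfra, Pdgfrb, Dcn, Prrx1 and Twist2, and Col1a2 rose. In the lists for other cell types 1 of 5 smooth muscle markers rose (Acta2), 2 of 5 neural markers rose (Map2 and Nes) and 1 of 6 adipocyte markers fell (Pparg). The log2 of the summed signal moved from 11.72 to 11.74 up to 11.97 to 12.15 for smooth muscle and from 10.35 to 10.52 up to 10.85 to 10.95 for neural markers. A sum follows its brightest genes: Acta2 had a mean of 11.8, against 7.41 or less for the other smooth muscle markers. Nes and Map2 had means of 9.96 and 8.63, against 6.65 or less for the other neural markers. The median differences were -0.05 for smooth muscle and 0.01 for neural markers, and 0.10 and 0.15 without vector replicate 2. For adipocyte markers the log2 of the summed signal was 8.71 to 9.14 with vector and 8.59 to 8.66 with Daxx. On the 8 arrays no call by limma was made among 7 markers of epithelium, 6 of endothelium, 7 of macrophages and blood, 5 of cartilage and bone and 4 of pluripotency. Over the 57 markers of all these lists, fibroblast ones included, 17.5% were called on the 8 arrays. The cartilage factor Sox9 was called higher without vector replicate 2 (0.21, limma adjusted p = 0.0173), and the counts of the other lists outside the fibroblast one were as on 8 arrays. The part of these shifts in the Sod3 result was not tested. In RNA of whole cultures, fewer cells of a type and less RNA per cell cannot be told apart.

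The genes nearest to Sod3 in profile were then taken, by the root mean square difference between log2 signals centred on each gene's own mean over the 8 arrays. The nearest was Prrx1, a homeobox factor of mesenchyme that is also in the fibroblast list, at 0.0746 log2 units. Its signal ran from 12.00 to 12.16 with vector and from 10.91 to 11.08 with Daxx, with no overlap, and it fell 2.10-fold (limma adjusted p = 3.14e-05). Nsg1, a protein of endosomal vesicles in neurons, was at 0.0773, and Rnf150, a RING finger protein, at 0.0887. Nsg1 fell 2.26-fold (limma adjusted p = 3.33e-05) and Rnf150 fell 1.97-fold (limma adjusted p = 2.02e-05). Each of the 3 was therefore lower in all 4 Daxx arrays by an amount like that of Sod3, and the measure says nothing more.

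**Figure D2:**
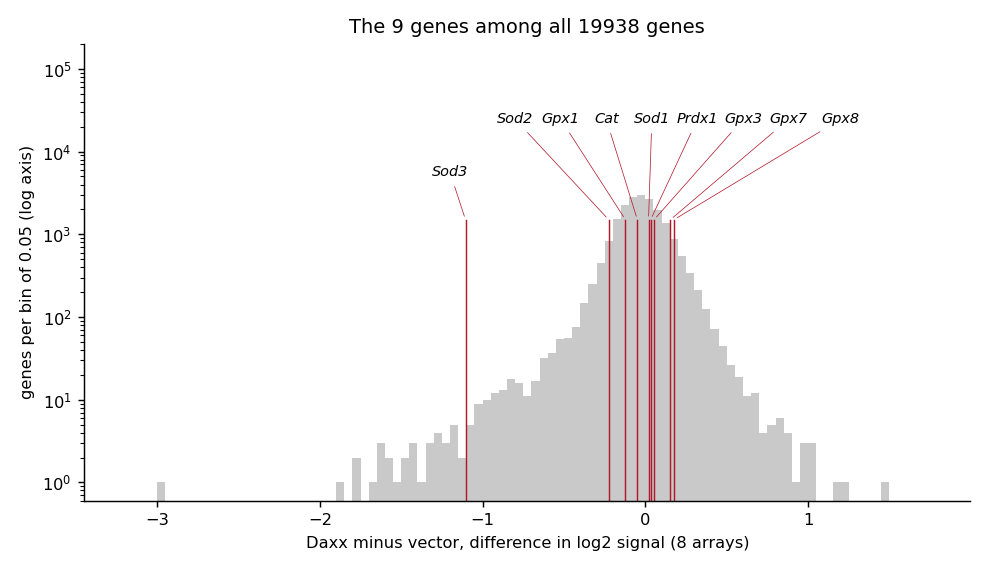
Histogram of Daxx minus vector differences of all 19938 genes in bins of 0.05 log2 units (horizontal axis: difference; vertical axis: number of genes, on a log axis), with red lines at the 9 genes. Sod3 at -1.11 lies in the sparse lower tail, and the other 8 genes lie between -0.22 and 0.18 in the bulk.

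The start regions of genes in this set were then described by sequence. Those printed are of Sod2 and Gpx8, which differed in opposite directions, and of Prdx1. None of these passed on the 8 arrays. Prdx1 is a known target of Nrf2, the main activator of antioxidant genes. Any link between these letters and the differences was not tested. RefSeq promoter sequences (GRCm38.p6) were matched for 8 of the 9 genes by symbol, and Sod3 was the one without a match. Below are the 250 bases before the start site, 5′ to 3′ on the gene's strand, for Sod2 (chr17:13007589-13007838, plus strand), Gpx8 (chr13:113046389-113046638, minus strand) and Prdx1 (chr4:116685349-116685598, plus strand). Capitals mark matches on either strand to the antioxidant response element core TGACNNNGC, the GC box GGGCGG, the CCAAT box CCAAT and the TATA box TATAAA, and no matches overlap in these windows.
Sod2: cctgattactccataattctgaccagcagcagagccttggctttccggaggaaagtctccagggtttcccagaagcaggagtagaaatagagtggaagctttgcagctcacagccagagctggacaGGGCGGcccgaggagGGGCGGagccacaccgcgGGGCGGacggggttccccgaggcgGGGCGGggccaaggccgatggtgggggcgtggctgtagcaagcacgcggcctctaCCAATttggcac
Gpx8: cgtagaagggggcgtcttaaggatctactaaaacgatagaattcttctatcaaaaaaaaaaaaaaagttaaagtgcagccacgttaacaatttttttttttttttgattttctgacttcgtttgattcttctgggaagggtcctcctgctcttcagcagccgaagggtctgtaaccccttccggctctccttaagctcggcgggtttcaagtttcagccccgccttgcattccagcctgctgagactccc
Prdx1: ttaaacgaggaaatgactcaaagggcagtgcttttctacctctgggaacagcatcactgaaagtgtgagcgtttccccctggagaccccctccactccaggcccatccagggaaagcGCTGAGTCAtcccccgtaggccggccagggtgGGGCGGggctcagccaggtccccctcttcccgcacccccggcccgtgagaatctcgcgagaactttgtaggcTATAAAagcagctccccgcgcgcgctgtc

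The Sod2 window held 4 GC boxes and 1 CCAAT box, with a GC content of 63.6%. The Gpx8 window held 0 matches to the 4 motifs, with a GC content of 44.8%, which says only that these letters are not in this window. The Prdx1 window held 1 antioxidant response element core, 1 GC box and 1 TATA box. Over the 8 matched genes the antioxidant core was found in 2 (Sod1 and Prdx1), the GC box in 6, the CCAAT box in 4 and the TATA box in 2. Of 32851 promoter windows of the same length in the table, 10.2% held the antioxidant core, 32.7% the GC box, 33.8% the CCAAT box and 12.4% the TATA box. A match is a description of the letters and not a site.

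Sod2 dismutates superoxide in the mitochondrial matrix. It read 10.76, 10.65, 10.82 and 10.91 in vector replicates 1 to 4, 10.54 and 10.57 in the DaxxA arrays, and 10.55 and 10.58 in the DaxxB arrays. All Daxx values were below all vector values, with vector replicate 2 the lowest of its group and 0.07 above the highest Daxx array. The difference was -0.22 (SE 0.0630, 95% interval -0.37 to -0.08), 1.17-fold, with an exact permutation p of 0.0286 and a limma adjusted p of 0.0944. Without vector replicate 2 Sod2 fell by 0.27 (SE 0.0467, limma adjusted p = 0.00357). Against the vector arrays, DaxxA differed by -0.23 and DaxxB by -0.22 on 8 arrays, and neither passed (limma adjusted p = 0.307 and 0.250). Both differences were -0.27 and passed without that array (limma adjusted p = 0.00890 and 0.00676), where 11.3% of all genes were called for DaxxA (6.8% lower, 4.46% higher) and 20.5% for DaxxB (9.53% lower, 10.9% higher). The Daxx arrays ran from 10.54 to 10.58, a narrower range than the 10.65 to 10.91 of the vector arrays.

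Gpx8, which lacks selenium and uses peroxide in oxidative protein folding, differed the other way. It read 10.83, 10.93, 10.87 and 10.81 in vector replicates 1 to 4, 11.00 and 11.06 in DaxxA, and 11.03 and 11.06 in DaxxB. The groups did not overlap, and vector replicate 2 was the vector array nearest to the Daxx arrays. The difference was 0.18 (SE 0.0496, 95% interval 0.06 to 0.29), with an exact permutation p of 0.0286 and a limma adjusted p of 0.0978. Without vector replicate 2 it rose by 0.20, which is 1.15-fold (SE 0.0414, limma adjusted p = 0.0102). DaxxA and DaxxB then differed from vector by 0.19 and 0.21, and both passed (limma adjusted p = 0.0278 and 0.0135). With all 8 arrays they differed by 0.17 and 0.18, and neither passed.

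Gpx1, the cytosolic selenium-dependent peroxidase, also had non-overlapping groups. It was at 10.36 to 10.55 with vector and 10.24 to 10.34 with Daxx, with a gap of 0.02 and vector replicate 2 the highest of all. The difference was -0.12 (95% interval -0.26 to 0.01, limma adjusted p = 0.379), and -0.08 without that array (limma adjusted p = 0.286). In all, 4 of the 9 genes had Daxx values entirely on one side of the vector values, 3 lower and 1 higher, where this held for 14.8% of all genes, 6.79% lower and 8.02% higher.

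Sod1, the cytosolic copper and zinc dismutase, did not separate the conditions. It read 11.69, 11.71, 11.70 and 11.82 in vector replicates 1 to 4, 11.70 and 11.62 in DaxxA, and 11.90 and 11.77 in DaxxB. DaxxA minus vector was -0.07 and DaxxB minus vector was 0.11, and neither passed. For all Daxx arrays together the difference was 0.02 (95% interval -0.14 to 0.18, limma adjusted p = 0.907). That interval holds no change of the pooled mean beyond 1.13-fold upward or 1.10-fold downward. The intervals of the single groups reached further, to 1.21-fold upward for DaxxB and 1.18-fold downward for DaxxA.

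Cat, the catalase of peroxisomes, was at 11.22 to 11.30 with vector and 11.13 to 11.30 with Daxx. The groups overlapped, and the difference was -0.05 (95% interval -0.17 to 0.07, limma adjusted p = 0.713). This was the narrowest range over the 8 arrays of the 9 genes, 0.17.

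Prdx1, the cytosolic peroxiredoxin that is recycled by thioredoxin, was the gene with the largest difference between the Daxx groups. It read 11.74, 11.93, 11.83 and 11.87 in vector replicates 1 to 4, 11.92 and 12.02 in DaxxA, and 11.71 and 11.84 in DaxxB. Both DaxxA values were above both DaxxB values, with the vector arrays spread across them. DaxxA minus DaxxB was 0.20 (SE 0.0882, 95% interval -0.01 to 0.40), which did not pass (limma adjusted p = 1.0; 0.122 without vector replicate 2). The second Prdx1 probe set, with a mean of 10.8 against 11.9, gave 0.26 (SE 0.117, limma adjusted p = 0.939 over all probe sets). Daxx minus vector was 0.03 for the first and 0.11 for the second, and neither passed. Neither could be tied to the Prdx1 gene rather than to a near-identical copy, so both readings are uncertain.

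Gpx3, the selenium-dependent peroxidase secreted into plasma, and Gpx7, a peroxidase of the endoplasmic reticulum that lacks selenium, had weak signals. Their means of 5.43 and 5.73 lay below the 95th percentile of the olfactory receptor genes, 6.07, and no detection calls are given. Gpx3 was at 5.32 to 5.47 with vector and 5.37 to 5.51 with Daxx. Gpx7 was at 5.53 to 5.78 with vector and 5.73 to 5.95 with Daxx. Both overlapped between groups and neither passed (limma adjusted p = 0.704 for Gpx3 and 0.374 for Gpx7). The difference for Gpx7 was 0.15 (95% interval -0.01 to 0.32). It was 0.10 for DaxxA and 0.21 for DaxxB, and neither passed (limma adjusted p = 0.772 and 0.325).

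**Figure D3:**
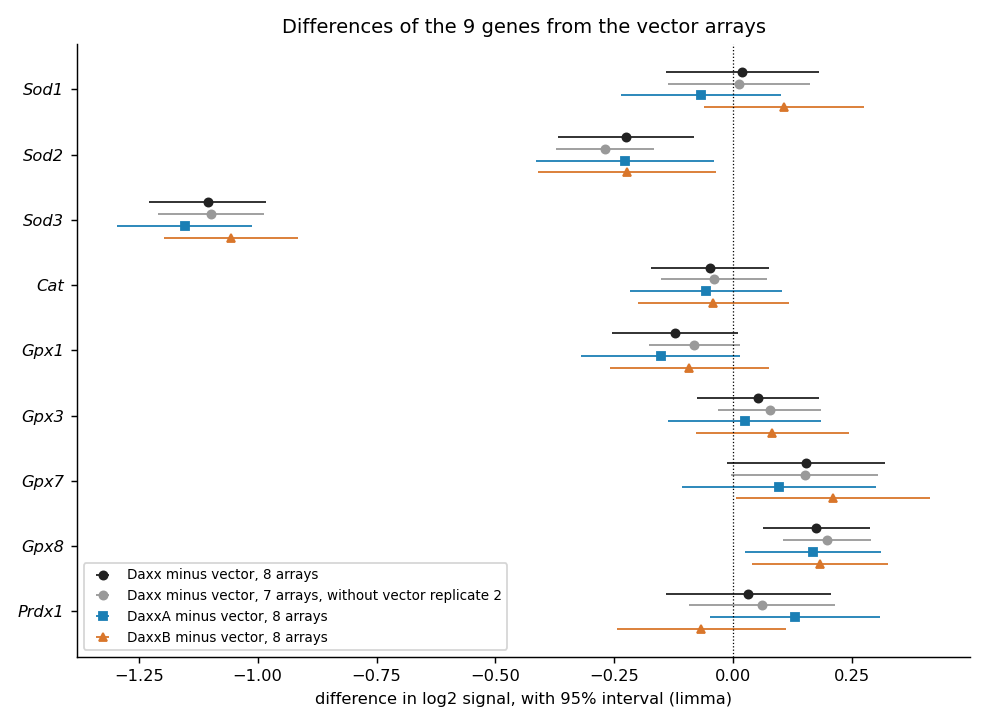
Differences in log2 signal from the vector arrays (horizontal axis) for the 9 genes (vertical axis), as points with 95% intervals from limma: Daxx on 8 arrays (black), Daxx on 7 arrays without vector replicate 2 (grey), DaxxA (blue) and DaxxB (orange). Sod3 lies near -1.1 in all 4 comparisons, Sod2 lies below 0 and Gpx8 above 0 by about 0.2, the intervals of Sod1, Cat, Gpx1, Gpx3 and Prdx1 cross 0, and of the Gpx7 intervals only that of DaxxB lies above 0.

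Between DaxxA and DaxxB, 0 of the 9 genes passed in limma, and 0 had an unadjusted p below 0.05. Over all genes 0 passed there as well, and 846 (4.24%) had an unadjusted p below 0.05. Without vector replicate 2, 428 genes (2.15%) passed and again 0 of the 9. Sod1 and Prdx1 then had an unadjusted p below 0.05, as had 22.3% of all genes. Their intervals on 8 arrays ran from -0.37 to 0.02 for Sod1 and from -0.01 to 0.40 for Prdx1, which hold both 0 and differences of that size.

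The genes that feed, supply and control these enzymes were then counted by role, from lists of 133 genes of which 122 were measured. In the Daxx arrays 7 fell, 6 rose and 109 did not pass, or 10.7% called against 4.52% of all genes. Of the 122, 103 had means above the olfactory percentile. With genes below that percentile left out, 10.3% of the 12974 genes tested were called, a share near that of the lists. The median difference of the 122 was 0.00080, against -0.03 for all genes. Without vector replicate 2, 15 fell and 12 rose, where 12.8% of all genes were called. The lists were chosen with earlier results of these arrays known, so their share called is a description.

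Of 7 other peroxiredoxins and glutathione peroxidases measured, 4 had means above the olfactory percentile. Prdx5 and Prdx6 had no matched symbol. These 7, the enzymes most like the 9, had no call by limma: 0 passed, on 8 arrays and on 7, with a median of 0.06. Prdx2, a cytosolic peroxiredoxin, had the highest difference of those (0.30, limma adjusted p = 0.55), with vector values from 10.10 to 11.08 against 10.94 to 11.15 with Daxx, and differed by 0.09 without vector replicate 2. In the thioredoxin and sulfiredoxin list 1 of 11 fell and 1 rose, on 8 arrays and on 7. Glrx, a cytosolic glutaredoxin that removes glutathione from proteins, fell 1.49-fold (9.17 to 9.25 in the vector arrays, 8.46 to 8.74 in the Daxx arrays, limma adjusted p = 0.00238). Glrx5, the mitochondrial glutaredoxin of iron-sulfur cluster assembly, rose 1.40-fold (limma adjusted p = 0.0139).

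Glutathione supply had 0 of 10 genes called by limma on the 8 arrays and 1 without vector replicate 2, Pgd of the pentose phosphate pathway (0.25 higher, limma adjusted p = 0.0175). Gclm, a subunit of the enzyme that starts glutathione synthesis, differed by 0.0035. In the list of metal and selenium supply 1 of 14 rose and 13 did not pass, and 1 more, Pstk, fell without vector replicate 2. The gene that rose was Atox1, the copper chaperone that delivers copper to the secretory pathway, where Sod3 takes up its copper. It was at 7.98 to 8.11 with vector and 8.27 to 8.50 with Daxx, 1.29-fold higher (limma adjusted p = 0.0166). Its direction was opposite to that of Sod3. Atp7a, the pump that receives copper from Atox1, differed by -0.04 (limma adjusted p = 0.82), and Ccs, the copper chaperone of Sod1, by -0.14 (limma adjusted p = 0.69).

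Of 23 genes for enzymes that make superoxide or peroxide, 2 fell, 1 rose and 20 did not pass (median -0.08). Without vector replicate 2, 4 fell and 1 rose (median 0.04). Of these 23 genes, 12 had means above the olfactory percentile. Lox, the secreted lysyl oxidase that releases peroxide as it crosslinks collagen, fell 1.54-fold, from 11.91 to 12.14 in the vector arrays to 11.40 to 11.47 in the Daxx arrays (limma adjusted p = 0.000699). Xdh, xanthine dehydrogenase, fell 1.45-fold (limma adjusted p = 0.00718), and Aox1, an aldehyde oxidase, rose 1.28-fold (limma adjusted p = 0.0493). Nox4, the oxidase that produces peroxide in mesenchymal cells, differed by 0.13 (limma adjusted p = 0.549). Oxidative folding in the endoplasmic reticulum, where Gpx7 and Gpx8 work, had 0 of 10 genes called by limma on the 8 arrays, and peroxisome import, which brings catalase into place, had 0 of 12. Of the folding genes, 1 fell without vector replicate 2 (Vkorc1, limma adjusted p = 0.0299). Of the peroxisome genes, 1 then fell (Pex3, limma adjusted p = 0.0177) and 2 rose (Pex13, limma adjusted p = 0.00768, and Pex14, limma adjusted p = 0.0485). The genes named here for passing only without that array were chosen after their values were seen.

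Among 19 regulators 3 fell, 1 rose and 15 did not pass, and without vector replicate 2, 6 fell and 2 rose. Ppargc1a, a coactivator of mitochondrial and antioxidant genes, had the lowest difference of the 13 called genes, and fell 2.49-fold from 8.27 to 8.44 in the vector arrays to 6.95 to 7.08 in the Daxx arrays (limma adjusted p = 2.02e-05). Foxo1, of a forkhead family known to activate Sod2 and Cat, fell 1.33-fold (limma adjusted p = 0.0300), and Hif1a, the oxygen-regulated factor, 1.18-fold (limma adjusted p = 0.0444). Epas1, its relative, rose 1.22-fold (limma adjusted p = 0.0466). Nfe2l2, which encodes Nrf2, differed by -0.01 (limma adjusted p = 0.917). Of 16 other targets of Nrf2, 2 rose, 1 fell and 13 did not pass (median 0.10), and without vector replicate 2, 4 rose and 1 fell. Gsta4, a glutathione transferase that clears products of lipid peroxidation, rose 2.31-fold, from 8.97 to 9.22 in the vector arrays to 10.18 to 10.41 in the Daxx arrays (limma adjusted p = 5.47e-05). Ephx1, an epoxide hydrolase, rose 1.30-fold (limma adjusted p = 0.0178). Mgst1, a microsomal transferase with a mean below the olfactory percentile, fell 1.44-fold (limma adjusted p = 0.0486). All 13 genes called in these lists also passed without vector replicate 2.

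**Figure D4:**
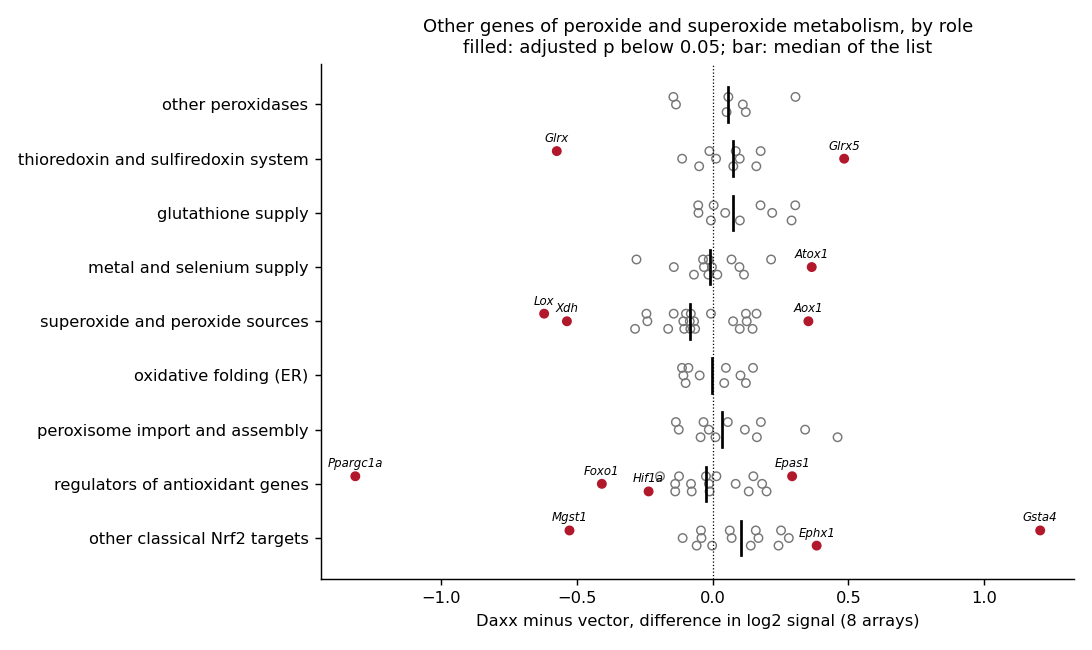
Daxx minus vector difference in log2 signal (horizontal axis) of 122 other genes of superoxide and peroxide metabolism, grouped by role (vertical axis); filled red points passed an adjusted p of 0.05, open points did not, and black bars are list medians. The 13 named genes passed, and the medians lie between -0.08 and 0.10.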

How the data were processed

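The data were 8 arrays of 35556 probe sets, deposited as log2 signals that the authors made with Affymetrix Expression Console and RMA, per the submitters' processing notes. RMA usually gives arrays a common distribution, which the deposited values of vector replicate 2 do not share. Versions are not named. The number of arrays limits the precision. Of the probe sets, 21789 had 1 gene symbol, 1621 several and 12146 none listed, and the first gave 19938 genes, with 1 probe set per gene by the highest mean. List symbols were matched directly or through RefSeq gene numbers.

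Tests ran in R 4.3.3 with limma 3.58.1, adjusted by Benjamini-Hochberg over all genes, and called at 0.05. Daxx minus vector used 2 conditions, and DaxxA, DaxxB and their difference used 3 groups, always on all 8 arrays. Exact permutation tests were two-sided. The alternatives left out arrays or dim genes, or changed the probe set rule, normalization, centring, array weights, prior variance or fit, and the second Prdx1 probe set was added after seeing the data. By rule, named genes were the 9 members, up to 4 called genes per list and the 3 profiles nearest to a called member, skipping predicted genes, olfactory receptors and small RNAs. Prdx2, Gclm, Atp7a, Ccs, Nox4 and Nfe2l2, which were not called, and the markers were named outside this rule. Members and lists were chosen with earlier results of these data known. List genes with no matched symbol were not analysed here.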

Additional observations from a re-analysis of the deposited data

Results flagged for a closer look

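Sod1 in vector replicate 4 read 11.82, and the nearest other vector array read 11.71. That gap was 0.839 of the range of the 4 vector arrays of this gene, above Dixon's critical value at the 95% level. It was 1 of 18 groups of 4 arrays checked, where about 5% exceed that value by chance. Sod1 was not called with or without that array.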

How the results depend on the processing

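Sod3 was called lower for Daxx minus vector under all 17 alternatives, from -1.14 to -1.08. Sod2 was called under 5 of 17 and Gpx8 under 4 of 17, with the same sign throughout, and the other 6 members under none. The count of members called for Daxx minus vector ran from 1 to 3 with single arrays left out, and was 3 without vector replicate 2 alone. It was 3 with dim genes left out (10.3% of all genes tested there were called), 2 after quantile normalization once more (7.16%), 3 with array weights (16.2%) and 3 with trend and robust variance (6.46%), against 4.52% of genes as reported. For DaxxA and for DaxxB against vector it ran from 1 to 3 with single vector arrays left out. It was 3 without vector replicate 2, where 11.3% of all genes were called for DaxxA and 20.5% for DaxxB. It was also 3 with array weights, the setting that called 16.2% of all genes for Daxx minus vector. The genes called for Daxx minus vector ran from 446 to 2558 with single arrays left out (902 as reported), and were 1428 after quantile normalization and 3231 with array weights. Members with an exact p below 0.05 numbered 4 (14.8% of all genes), from 2 to 5 with single arrays left out (9.35% to 15.5% of all genes), and 2 after quantile normalization (17.4%). Fits with 1 array left in DaxxA or DaxxB, where the lone array was assumed to vary like the others, give no count here for either group against vector. The cause of these shifts was not tested.

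The replicate numbers of the titles are not stated to pair samples, and same-numbered arrays of different groups correlated at 0.0238 to 0.162 in their deviations. Vector replicates 3 and 4 share their number with no Daxx array, so a block on that number leaves them out of each difference. With the replicate number as a block, 162 genes and 1 member, Sod3, were called for Daxx minus vector, and 0 members for DaxxA and for DaxxB. Sod3 was then at -1.19 (limma adjusted p = 0.117) and -1.10 (limma adjusted p = 0.112), where 0 genes were called in all by limma (1951 and 2002 at an unadjusted p below 0.05). Members dimmer than the olfactory percentile, Gpx3 and Gpx7, gave no value with dim genes left out.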
